A study of Mus musculus with 4 samples.

Results

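Toll-like receptors and their route to the transcription factor NF-kB were followed in mouse liver tumours through 38 genes, chosen by name from 48526 genes in the count tables. They comprise 13 sensors, 3 proteins that present bacterial lipopolysaccharide (LPS), 4 adaptors, 4 signalling enzymes, 5 NF-kB subunits and 9 inhibitors or feedback genes. All 38 were found in the tables, and all 38 passed the filter on low counts. The tested animals were C57BL/6 mice fed 5000000000 colony-forming units of Akkermansia muciniphila (AKK), a mucin-degrading gut bacterium, and the comparison animals were C57BL/6 mice given phosphate-buffered saline (PBS). Feeding began 2 weeks before a methionine- and choline-deficient diet, which produces fatty liver, and went on during 2 weeks of that diet. All animals of both groups then carried in the liver an implant of RIL-175, a mouse hepatoma line made to express luciferase. Akkermansia feeding stopped for 6 days after the operation and was then taken up again. Each group has 2 tumour libraries (AKK 1, AKK 2, PBS 1 and PBS 2), described as biological replicates. Nothing in the labels says that the tumours came from separate mice, and the p-values therefore cover only the spread among these 4 libraries, which may be technical. Every tumour grew from 1 implanted cell line in the same host strain.

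Toll-like receptors recognise microbial molecules at the cell surface or in endosomes. They signal through the adaptors Myd88 and Ticam1, the Irak kinases and the ubiquitin ligase Traf6 to the kinases that free NF-kB from its inhibitors. NF-kB then switches on cytokine genes together with its own inhibitors, which closes a feedback loop. In liver the pathway is known for the response of macrophages to bacterial products that arrive from the gut. Akkermansia muciniphila is a Gram-negative bacterium, and an outer membrane protein of it has been reported to act on Toll-like receptor 2.

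None of the 38 genes passed an adjusted p of 0.05 in edgeR's quasi-likelihood test, where 0.00572% of 17479 genes did (0% as lower in AKK). Adjusted p ran between 0.211 and 0.994 over the members. At an unadjusted p under 0.05 there were 5 members, Cd14 as higher in AKK (6.7% of all genes) and Rel, Traf6, Tlr13 and Tlr9 as lower (8.62% of all genes). That is 13.2% of the list, against 15.3% of all genes. DESeq2 called Cd14 as higher and Rel as lower at an adjusted p under 0.05, which is 5.26% of the list against 5.12% of the genes it tested (2.08% higher and 3.04% lower). Both AKK libraries lay below both PBS libraries in 14 members (36.8%, against 24.7% of all genes) and above both in 5 (13.2%, against 26.7%), so that 19 did not overlap, where 51.4% of all genes did not. A positive log2 fold change (AKK minus PBS) was found in 17 members, against 51.8% of all genes. The median was -0.02 over the members and 0.02 over all genes. By fitted fold change, 3 members were at least 2-fold lower in AKK (all genes 8.32%) and 0 at least 2-fold higher (all genes 7.3%), and 27 had a log2 fold change within 0.5 of zero. Levels are given as CPM, the reads of a gene per 1000000 reads of its library after TMM scaling.

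**Figure D1:**
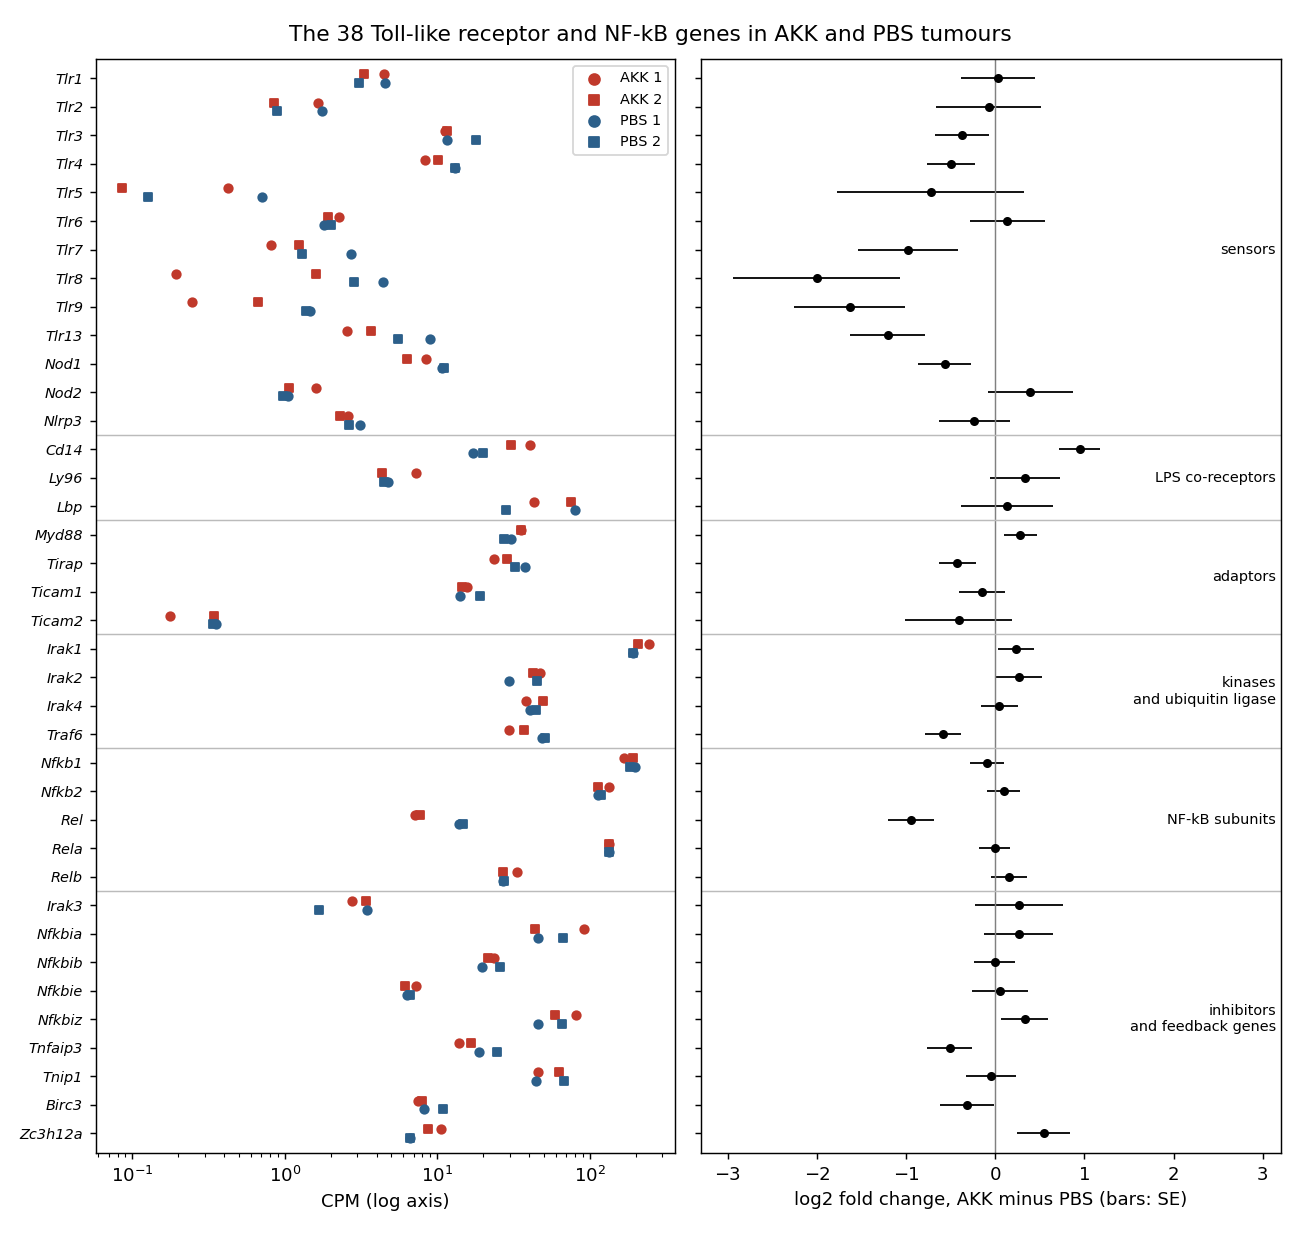
The left panel plots CPM (log axis) of each of the 38 genes in AKK 1, AKK 2, PBS 1 and PBS 2, and the right panel the log2 fold change (AKK minus PBS) with its standard error. Most members sit near a log2 fold change of 0, Cd14 lies highest at 0.95 and Tlr8 lowest at -2.0.

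The 4 libraries held 55360237, 59027227, 52500328 and 48912489 reads on genes in AKK 1, AKK 2, PBS 1 and PBS 2, and 29 members had at least 100 reads in every library. The smallest count of any member was 5 reads. A count of 0, which no member had, would allow up to 0.0514 to 0.0631 CPM (3 reads, counting error only). The tumours differed in make-up: hepatocyte markers lay above both PBS libraries in both AKK libraries for 19 of 20 genes (26.7% of all genes). Their log2 fold changes had a median of 7.05. Any of them that passed the filter through AKK alone had to lie above, so this count is a description and no test. Skeletal muscle markers summed to 2.95 and 2.95 CPM in AKK against 264 and 9.65 CPM in PBS. In bulk tissue, fewer cells of a type and less RNA per cell cannot be told apart. The count tables of AKK and PBS are named after different schemes, and if that marks separate cohorts, these cannot be told apart from feeding.

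Among the sensors, the listed endosomal receptors of nucleic acids lay lower in the AKK tumours. Of the 5 cell-surface receptors 4 overlapped between groups, where 51.4% of all genes did not overlap. All 5 endosomal receptors in the list (Tlr3, Tlr7, Tlr8, Tlr9 and Tlr13) had both AKK libraries below both PBS libraries, as did 24.7% of all genes. Their log2 fold changes had a median of -1.21. For Tlr3 and Tlr7 the margin between the nearest libraries was narrow. Of the 5 cell-surface receptors, Tlr4 lay below in both AKK libraries, and Tlr1, Tlr2, Tlr5 and Tlr6 overlapped, with a median of -0.07 and sums of 17.2 and 16.3 CPM in AKK against 21.9 and 19.1 CPM in PBS. None of these 10 genes passed the adjusted test, and whether the receptor classes differ was not tested. The Toll-like receptor genes Tlr11 and Tlr12 were measured too but are not in the list. Tlr11 overlapped, with 11 and 10 reads in AKK against 4 and 16 in PBS (-0.15, SE 0.83). Tlr12 read 2.19 and 2.43 CPM in AKK against 3.30 and 2.57 CPM in PBS (-0.34, SE 0.41).

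Tlr13, which senses bacterial ribosomal RNA in mouse, read 2.55 and 3.70 CPM in AKK 1 and AKK 2 against 8.90 and 5.51 CPM in PBS 1 and PBS 2. The groups did not overlap, and the spread within PBS was the wider (log2 fold change -1.21, SE 0.42, edgeR adjusted p = 0.287, n = 2 per group). Tlr9, the receptor of unmethylated bacterial DNA, read 0.248 and 0.668 CPM in AKK against 1.46 and 1.39 CPM in PBS, from 14 and 39 against 78 and 66 reads. Its PBS libraries nearly coincided, and AKK 1 was the lowest of all (-1.63, SE 0.62, edgeR adjusted p = 0.309). Tlr8, a receptor of single-stranded RNA and its breakdown products, read 0.195 and 1.61 CPM in AKK against 4.39 and 2.86 CPM in PBS, with only 11 reads in AKK 1 and 94 in AKK 2. That is an 8.27-fold gap between the AKK tumours, the widest within a group among the 38 genes (log2 fold change -2.0, SE 0.93, edgeR adjusted p = 0.369). The Tlr8 value was -1.17 without AKK 1 and -4.21 without AKK 2, and that of Tlr9 -1.09 and -2.52.

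Tlr7, which recognises single-stranded RNA, read 0.814 and 1.23 CPM in AKK against 2.72 and 1.30 CPM in PBS, so AKK 2 and PBS 2 were nearly level and PBS 1 stood above the rest (-0.97, SE 0.56, edgeR adjusted p = 0.442). Without PBS 1 its log2 fold change was -0.35, and without PBS 2 it was -1.43. Tlr3, the receptor of double-stranded RNA that signals through Ticam1, read 11.3 and 11.5 CPM in AKK against 11.6 and 18 CPM in PBS. Here 3 of the 4 tumours were level and PBS 2 was higher (-0.37, SE 0.30, edgeR adjusted p = 0.57). Without PBS 2 its log2 fold change was -0.05. Tlr7, Tlr8, Tlr9 and Tlr13 together summed to 3.8 and 7.21 CPM in AKK against 17.5 and 11.1 CPM in PBS.

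Most macrophage markers were lower in the AKK tumours as well. Of 15 macrophage genes, 11 had both AKK libraries below both PBS libraries (73.3%, against 24.7% of all genes) and 0 above (26.7% of all genes), and 14 had a negative log2 fold change with a median of -0.53, and none was at 0. Their summed level was 709 and 717 CPM in AKK against 1081 and 832 CPM in PBS. Mrc1 alone gave 360 and 341 CPM of these sums in AKK and 470 and 363 CPM in PBS. Mpeg1, whose product punches pores in bacteria taken up by macrophages, had the smallest p of the 15. It stood at 34.3 and 45.3 CPM in AKK against 80.3 and 78.2 CPM in PBS. Cd68 was level, at 19.0 and 16.6 CPM in AKK against 18.1 and 17.0 CPM in PBS. Kupffer cell markers, given further on, did not share the direction: of 9, 5 lay above (26.7% of all genes) and 1 below. Those 5 passed the filter through AKK alone. The part of macrophage RNA in the receptor values was not tested. Of 10 dendritic cell markers 3 were below the filter, among them Siglech, which marks plasmacytoid dendritic cells, with 0.0885 and 0.0343 CPM in AKK against 0 and 0.0421 CPM in PBS. The other 7 summed with these to 111 and 69.3 CPM in AKK against 51.5 and 90.0 CPM in PBS. Of the 7, 6 had a positive log2 fold change and 1 a negative, with a median of 0.39. The part of dendritic cell RNA in the receptor values was not tested either.

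**Figure D2:**
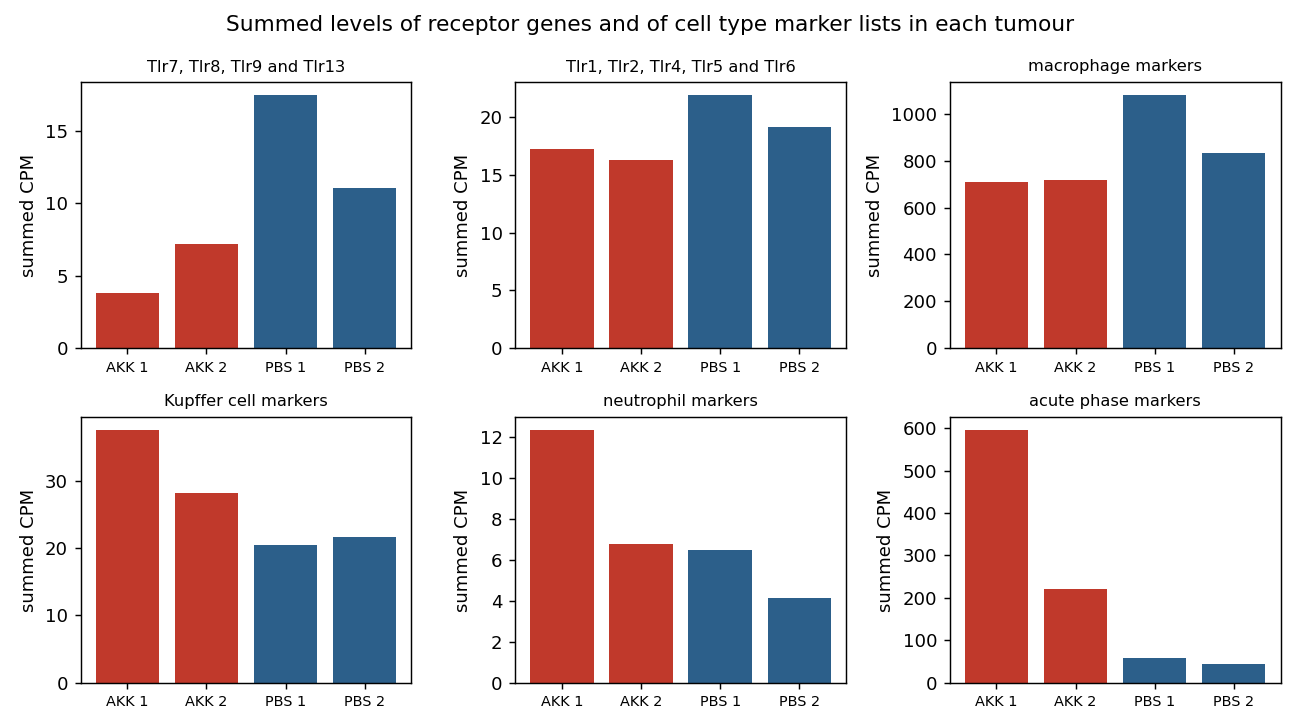
Bars give the summed CPM of receptor genes and of cell type marker lists in AKK 1, AKK 2, PBS 1 and PBS 2. Tlr7, Tlr8, Tlr9 and Tlr13 together (3.8 and 7.21 CPM in AKK against 17.5 and 11.1 CPM in PBS) and the macrophage markers are lower in both AKK tumours, and acute phase genes (596 and 221 CPM in AKK against 59.3 and 44.1 CPM in PBS) are higher.

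Of the cell-surface receptors, Tlr4, the LPS receptor, read 8.33 and 10.2 CPM in AKK against 13.1 and 13 CPM in PBS. The PBS tumours were almost identical and both AKK tumours lay below them (-0.50, SE 0.27, edgeR adjusted p = 0.415). Tlr2, which pairs with Tlr1 or Tlr6 to bind bacterial lipopeptides, read 1.65 and 0.856 CPM in AKK against 1.74 and 0.883 CPM in PBS, a pattern in which the replicates differed about as much in either group and the groups overlapped throughout (-0.07, SE 0.59). Tlr1 read 4.49 and 3.29 CPM in AKK against 4.54 and 3.07 CPM in PBS. Tlr6 read 2.26 and 1.94 CPM in AKK against 1.8 and 2.02 CPM in PBS. Tlr1 and Tlr6 are similar genes, and reads that matched both places would be missing from the counts. Tlr5, the flagellin receptor, had 24 and 5 reads in AKK against 38 and 6 in PBS, too few to show a difference between groups whose replicates differed by 4.96-fold and 5.65-fold.

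No cytosolic sensor passed the test. Nod1 and Nod2 recognise fragments of bacterial cell wall, and Nlrp3 assembles the inflammasome that activates caspase 1. Nod1 read 8.42 and 6.3 CPM in AKK against 10.8 and 11.1 CPM in PBS, below in both AKK tumours (-0.57, SE 0.30, edgeR adjusted p = 0.407). Nod2 read 1.59 and 1.06 CPM in AKK against 1.05 and 0.967 CPM in PBS, where AKK 2 and PBS 1 were level (0.39, SE 0.48, edgeR adjusted p = 0.708). Without AKK 1 its log2 fold change was 0.077. Nlrp3 read 2.58 and 2.29 CPM in AKK against 3.11 and 2.63 CPM in PBS, slightly lower in both AKK tumours (-0.23, SE 0.40, edgeR adjusted p = 0.796).

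Per kilobase of exon, the sensor levels formed a gradual order in which few neighbours were apart. Tlr3 came highest, at a mean over the 4 libraries of 2.52 CPM per kilobase, followed by Tlr4 (2.01), Nod1 (1.8), Tlr13 (1.2) and Tlr1 (1.15). The ranges of these 5 over the libraries overlapped from each gene to the next. Tlr1, at 0.918 to 1.36 CPM per kilobase, was then apart from Nlrp3, at 0.566 to 0.767. Nlrp3, Tlr8, Tlr6, Tlr2, Tlr7, Tlr9 and Nod2 overlapped in turn, with means of 0.654 down to 0.233 CPM per kilobase. Tlr5 stood lowest, with a range of 0.0179 to 0.149 CPM per kilobase that did not reach Nod2. Tlr13 held a place near Tlr4 in PBS 1 (2.07 and 2.36 CPM per kilobase) and lay well under it in AKK 1 (0.592 and 1.5). Among the downstream genes, Irak1, Rela and Nfkbia were the most abundant, with means of 44.2, 43.7 and 38.6 CPM per kilobase. Others lay within the range of the sensors, such as Nfkbie (2.17), Birc3 (1.73), Rel (1.46) and Irak3 (0.768), and Ticam2 (0.0523) was the lowest of the 38.

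**Figure D3:**
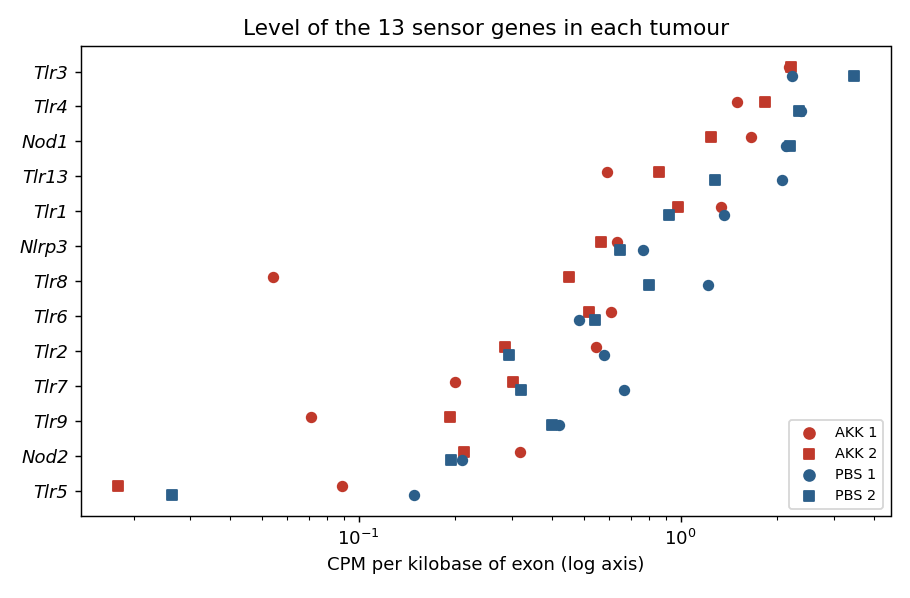
Points give the level of each of the 13 sensor genes in CPM per kilobase of exon (log axis) in AKK 1, AKK 2, PBS 1 and PBS 2, ordered by the mean over the libraries. Tlr3 is highest with a mean of 2.52 and Tlr5 lowest with 0.0704, and the AKK points of Tlr8, Tlr9 and Tlr13 lie left of their PBS points.

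Of the LPS co-receptors, Cd14 lay higher in both AKK tumours, and Ly96 and Lbp overlapped. Cd14, which hands LPS to Tlr4 and is made by monocytes and macrophages and, in inflammation, by hepatocytes, read 40.9 and 30.3 CPM in AKK against 17.1 and 19.8 CPM in PBS. Both AKK tumours lay above both PBS tumours, by a fitted 1.93-fold (log2 fold change 0.95, SE 0.23, edgeR adjusted p = 0.211, DESeq2 adjusted p = 0.0367). It had the smallest p of the 38 genes and ranked 590 among all genes. Its log2 fold change stayed between 0.72 and 1.14 when any 1 library was left out. Ly96, the partner that completes the LPS receptor, read 7.31 and 4.33 CPM in AKK against 4.72 and 4.5 CPM in PBS, where AKK 1 alone was higher. Lbp, the plasma protein that carries LPS to Cd14, read 43.0 and 75.2 CPM in AKK against 79.9 and 28.1 CPM in PBS. The highest and the lowest Lbp value were both in PBS tumours (0.13, SE 0.52, edgeR adjusted p = 0.92), and its log2 fold change was 1.07 without PBS 1 and -0.46 without PBS 2.

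Hepatocyte and acute phase genes were also higher in both AKK tumours. Of 15 acute phase genes, 13 lay above both PBS libraries in both AKK libraries (26.7% of all genes). Their summed levels were 596 and 221 CPM in AKK against 59.3 and 44.1 CPM in PBS over the 15. Hamp was at 0 in both PBS tumours and Saa1, Orm2 and Apcs in 1 of them. A gene that passes the filter through AKK alone, such as Hamp, has to lie above, so the count of 13 is a description and no test. Of 9 Kupffer cell markers 5 lay above (26.7% of all genes) and 1 below. These 5 had at most 13 reads in a PBS library (Marco in PBS 1) and passed the filter through AKK alone. Of them, Clec4f, Cd5l, Timd4 and Marco were at 0 in PBS 2. The 9 markers summed to 37.5 and 28.2 CPM in AKK against 20.5 and 21.7 CPM in PBS. Slc40a1, which overlapped, gave 8.71 and 19.7 CPM of these sums in AKK and 12.5 and 16.2 CPM in PBS. Of 12 neutrophil markers 7 were below the filter and Ly6g had 0 reads in every library. The neutrophil sums were 12.3 and 6.78 CPM in AKK against 6.5 and 4.16 CPM in PBS. The part of these cells in the Cd14 value was not tested. Lbp is itself an acute phase gene of hepatocytes, and the part of hepatocyte RNA in its values was not tested.

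No adaptor passed the test: Myd88 lay above PBS and Tirap below it in both AKK tumours, and Ticam1 and Ticam2 overlapped. Myd88, the adaptor of every Toll-like receptor in the list but Tlr3, read 35.3 and 35.2 CPM in AKK against 30.6 and 27.4 CPM in PBS. The AKK libraries coincided and lay just above PBS (0.28, SE 0.19, edgeR adjusted p = 0.485). Tirap, which bridges Tlr2 and Tlr4 to Myd88, read 23.7 and 28.6 CPM in AKK against 37.9 and 32.2 CPM in PBS, and was lower in both AKK tumours (-0.42, SE 0.21, edgeR adjusted p = 0.385). Ticam1, the adaptor of Tlr3, read 15.6 and 14.5 CPM in AKK against 14.1 and 19.2 CPM in PBS and overlapped. Ticam2, which links Tlr4 to Ticam1, was near the detection limit with 10 and 20 reads in AKK against 19 and 16 in PBS. Its exons share 14.5% of their length with Tmed7 on the same strand in GENCODE M21, so reads there may be uncounted.

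Of the signalling enzymes, Traf6 alone had an unadjusted p under 0.05 in edgeR, as lower in AKK (8.62% of all genes), and neither tool called it. Traf6, the ubiquitin ligase on which the Myd88 branch converges, read 29.4 and 37.1 CPM in AKK against 49.0 and 50.8 CPM in PBS. The PBS tumours were close and both AKK tumours lay below them (-0.59, SE 0.20, edgeR adjusted p = 0.285, DESeq2 adjusted p = 0.211). Irak1, a kinase of the Myd88 complex and the member with the most reads, read 244 and 206 CPM in AKK against 192 and 192 CPM in PBS, above in both AKK tumours by little (0.23, SE 0.20, edgeR adjusted p = 0.588). Irak4, the kinase that starts the cascade, read 38.3 and 49.8 CPM in AKK against 40.7 and 44.5 CPM in PBS. Irak2, which sustains signalling, read 47.1 and 42.7 CPM in AKK against 29.4 and 45.3 CPM in PBS, so that PBS 1 stood below the other 3.

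**Figure D4:**
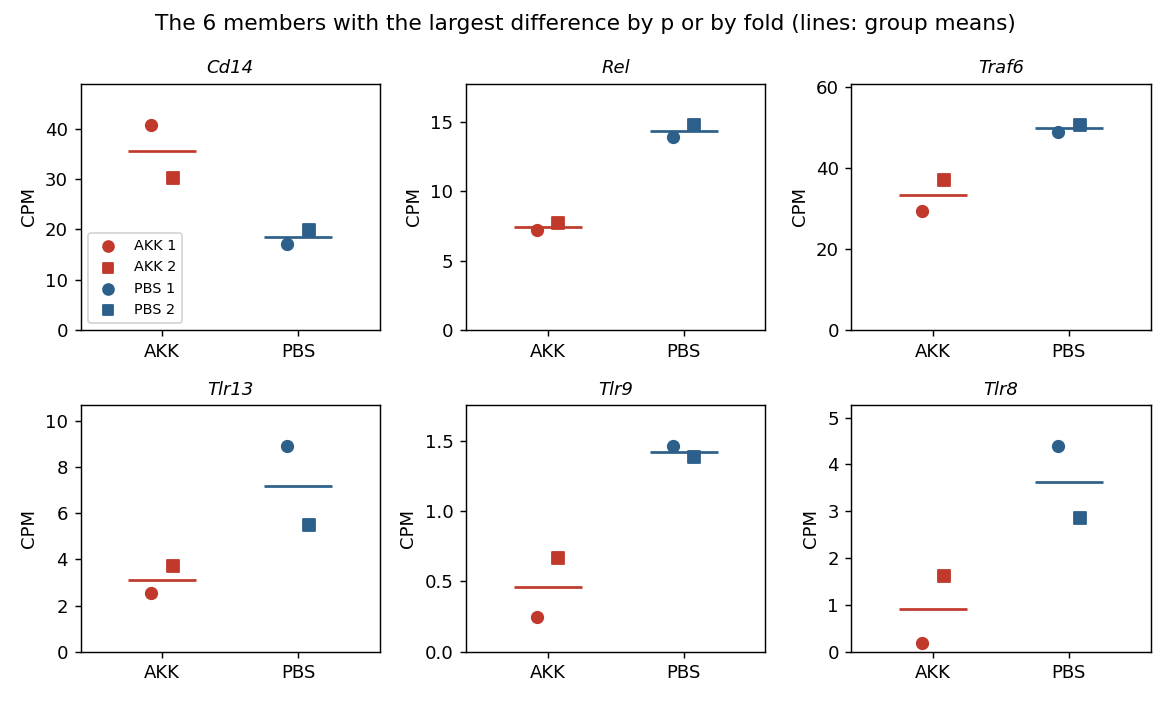
Points give the CPM of Cd14, Rel, Traf6, Tlr13, Tlr9 and Tlr8 in each library, with AKK left and PBS right, and lines the group means. These members were picked for the largest difference by p or by fold, a choice that favours groups without overlap. The groups do not overlap in any of the 6 genes, as in 51.4% of all genes. Cd14 is higher in AKK (40.9 and 30.3 against 17.1 and 19.8 CPM) and the other 5 are lower.

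Of the NF-kB subunits, Rel was called lower in AKK by DESeq2, and Nfkb1, Nfkb2, Rela and Relb by neither tool. Rel, the subunit abundant in lymphoid and myeloid cells, read 7.18 and 7.74 CPM in AKK against 13.9 and 14.8 CPM in PBS. Replicates differed by 1.08-fold in AKK and 1.06-fold in PBS, and PBS exceeded AKK by a fitted 1.93-fold (log2 fold change -0.95, SE 0.26, edgeR adjusted p = 0.232, DESeq2 adjusted p = 0.0207). Its log2 fold change stayed between -1.01 and -0.89 when any 1 library was left out. Rela, the main transactivating subunit, read 133.9 and 134.1 CPM in AKK against 134.3 and 134.5 CPM in PBS, so that all 4 tumours were within 1 CPM of each other. Nfkb1, whose product is the usual partner of Rela, read 168 and 192 CPM in AKK against 199 and 185 CPM in PBS. Nfkb2, of the noncanonical branch, read 135 and 113 CPM in AKK against 113 and 119 CPM in PBS, and its partner Relb 33.3 and 27.0 CPM in AKK against 26.9 and 27.4 CPM in PBS. The difference between Rel and the other subunits was not tested. Most macrophage markers were lower in the AKK tumours, as given above. Of lymphoid markers past the filter, 8 of 8 B and plasma cell genes had a positive log2 fold change (51.8% of all genes). So did 10 of 11 T and NK cell genes, with 1 negative. The part of any of these cells in the Rel value was not tested.

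Inhibitors and feedback genes, many of them direct targets of NF-kB, showed no common direction, with 5 positive and 4 negative log2 fold changes among the 9 and a median of 0.05. Nfkbia, the inhibitor that NF-kB induces first, read 91.7 and 43.7 CPM in AKK against 45.9 and 66.9 CPM in PBS. AKK 1 was the highest tumour and AKK 2 the lowest (0.26, SE 0.39, edgeR adjusted p = 0.761), and the value turned to -0.36 without AKK 1. Nfkbiz, a nuclear inhibitor-like protein that helps induce a set of late genes, read 81.5 and 59.0 CPM in AKK against 46.0 and 65.6 CPM in PBS and overlapped likewise. Tnfaip3, a deubiquitinase that ends the signal, read 14 and 16.5 CPM in AKK against 18.9 and 24.7 CPM in PBS, below in both AKK tumours (-0.51, SE 0.25, edgeR adjusted p = 0.38). Zc3h12a, a ribonuclease that degrades cytokine mRNA, read 10.6 and 8.75 CPM in AKK against 6.62 and 6.67 CPM in PBS, above in both AKK tumours (0.54, SE 0.29, edgeR adjusted p = 0.417).

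Of the other feedback genes, Birc3 lay lower in both AKK tumours and 4 overlapped. Tnip1, which binds Tnfaip3, read 45.5 and 63.3 CPM in AKK against 44.4 and 67.8 CPM in PBS, so that replicates differed more than groups. Nfkbib read 23.7 and 21.6 CPM in AKK against 19.8 and 25.8 CPM in PBS. Nfkbie, like Nfkbib an inhibitor that holds NF-kB in the cytoplasm, read 7.31 and 6.17 CPM in AKK against 6.37 and 6.62 CPM in PBS. None of these 3 genes separated the groups. Birc3, a ubiquitin ligase that blocks apoptosis, read 7.48 and 7.95 CPM in AKK against 8.21 and 11 CPM in PBS, lower in both AKK tumours (-0.31, SE 0.30, edgeR adjusted p = 0.629). Irak3, a decoy kinase of myeloid cells that restrains the cascade, read 2.74 and 3.43 CPM in AKK against 3.45 and 1.68 CPM in PBS. Over the 38 genes, the groups' means lay farther apart than the replicates of either group for 13, on the log2(CPM + 1) scale, which is near the 34.9% found over all genes.

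Promoters are shown here for members that carry NF-kB's own recognition motif, since the feedback genes and subunits are targets of the factor. In 250 bases before each RefSeq start (GRCm38.p6), 29 of the 38 genes had an entry, with 39 starts among them. The NF-kB consensus, searched on both strands, stood in 13 of these 39 windows (33.3%), against 7.25% of 32851 windows of that length. A window counts once however many matches it holds, but windows of 1 gene can overlap, and the 2 of Irak1 start a few bases apart and hold the same match. By gene, 10 of 29 (34.5%) had it. These were Tlr2, Tlr3, Nlrp3, Irak1, Nfkb2, Rel, Nfkbia, Nfkbie, Tnfaip3 and Tnip1. The motif GAGGAAGT, a binding sequence of the myeloid factor PU.1, stood in 2 of 39 windows (Tlr1 and Rel), against 2.44% of all windows. The last 150 bases before the start are printed 5′ to 3′ for 6 genes, with matches to the NF-kB consensus in capitals.
Nfkb2 (chr19:46304587-46304736, plus strand): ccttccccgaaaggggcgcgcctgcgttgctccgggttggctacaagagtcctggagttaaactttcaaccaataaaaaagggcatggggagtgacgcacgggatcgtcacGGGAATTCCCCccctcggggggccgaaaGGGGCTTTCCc
Tnip1 (chr11:54962941-54963090, minus strand): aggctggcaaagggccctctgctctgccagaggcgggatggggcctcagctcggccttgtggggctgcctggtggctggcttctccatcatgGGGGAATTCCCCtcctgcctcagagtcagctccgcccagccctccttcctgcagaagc
Rel (chr11:23770970-23771119, minus strand): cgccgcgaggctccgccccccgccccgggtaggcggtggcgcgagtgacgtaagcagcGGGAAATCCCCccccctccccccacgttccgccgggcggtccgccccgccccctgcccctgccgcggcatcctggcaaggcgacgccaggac
Nfkbia (chr12:55492648-55492797, minus strand): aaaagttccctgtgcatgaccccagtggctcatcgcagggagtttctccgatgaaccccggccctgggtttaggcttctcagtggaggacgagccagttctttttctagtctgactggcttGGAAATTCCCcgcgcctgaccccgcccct
Nfkbie (chr17:45555550-45555699, plus strand): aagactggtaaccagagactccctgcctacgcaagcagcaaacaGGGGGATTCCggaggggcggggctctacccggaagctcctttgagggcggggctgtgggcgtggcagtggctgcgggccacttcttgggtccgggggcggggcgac
Tnfaip3 (chr10:19015411-19015560, minus strand): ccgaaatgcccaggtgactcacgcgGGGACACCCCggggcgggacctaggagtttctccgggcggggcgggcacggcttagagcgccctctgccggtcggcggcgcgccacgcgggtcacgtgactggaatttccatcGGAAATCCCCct

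The 6 genes with a printed promoter had no common direction. Rel and Tnfaip3 lay lower in both AKK tumours (24.7% of all genes), and Nfkb2, Tnip1, Nfkbia and Nfkbie overlapped, where 51.4% of all genes did not. Of the other genes with a match, Tlr3 and Nlrp3 lay lower, Irak1 higher (26.7% of all genes) and Tlr2 overlapped. Tlr8, Tlr9 and Tlr13, the members with the largest fold changes, had no match in their windows, which says only that these letters are not there.

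Genes around the pathway were counted from lists chosen for their roles. The first list holds 28 genes of NF-kB activation, mostly kinases and ubiquitin enzymes with their subunits, and also cofactors and adaptors such as Bcl3, Nfkbid, Tnip2, Tnip3 and Tax1bp1. edgeR called none of them over all genes, 5 had an unadjusted p under 0.05 (17.9%, against 15.3% of all genes) and DESeq2 called 1 (3.57%, against 5.12%). Both AKK libraries lay below PBS in 12 (42.9%, against 24.7% of all genes) and above in 6 (21.4%, against 26.7%), with a median log2 fold change of -0.06. Bcl3, a nuclear inhibitor-like cofactor of NF-kB, was the gene that DESeq2 called, with 65.6 and 68.4 CPM in AKK against 37.6 and 41.5 CPM in PBS (log2 fold change 0.76, SE 0.18, edgeR adjusted p = 0.196, DESeq2 adjusted p = 0.0404). Tab3, a subunit of the kinase complex that Traf6 engages, read 28.3 and 38.8 CPM in AKK against 56.1 and 66.2 CPM in PBS (-0.87, SE 0.23, edgeR adjusted p = 0.224). Chuk, a kinase of the complex that phosphorylates the inhibitors, read 95.5 and 97.7 CPM in AKK against 145 and 128 CPM in PBS, and the groups did not overlap (-0.50, SE 0.18, edgeR adjusted p = 0.295).

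Of 16 further receptor components, edgeR called none, 3 had an unadjusted p under 0.05 (15.3% of all genes) and DESeq2 called 1 (5.12% of all genes it tested), Cd36. Cd36, a lipid scavenger receptor that works with Tlr2 and is also abundant in endothelium, read 1.47 and 0.617 CPM in AKK against 4.54 and 3.22 CPM in PBS (-1.89, SE 0.57, edgeR adjusted p = 0.249, DESeq2 adjusted p = 0.0286). Endothelial markers were lower as well, with 8 of 11 that passed the filter below both PBS libraries (24.7% of all genes) and 1 above. They summed to 55.8 and 51.2 CPM in AKK against 123 and 86.1 CPM in PBS, and their part in the Cd36 value was not tested. Peli2, a ubiquitin ligase of the Irak complex, read 12.8 and 14.2 CPM in AKK against 20.1 and 26.2 CPM in PBS. Hsp90b1, the chaperone that folds Toll-like receptors, read 656 and 635 CPM in AKK against 422 and 391 CPM in PBS, higher in both AKK tumours (0.67, SE 0.22, edgeR adjusted p = 0.274). Unc93b1, which carries the endosomal receptors to their place, read 22.8 and 16.9 CPM in AKK against 27.0 and 21.5 CPM in PBS and overlapped.

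NF-kB target cytokines and adhesion genes mostly had positive log2 fold changes, with Lcn2 and Ccl2 called by DESeq2. Of 28, 26 passed the filter and 20 had a positive log2 fold change, with a median of 0.42 against 0.02 over all genes. Both AKK libraries lay above PBS in 7 (26.9%, against 26.7% of all genes) and below in 0 (24.7% of all genes). edgeR called none, and 2 had an unadjusted p under 0.05 (7.69%, against 15.3% of all genes). DESeq2 called those 2, Lcn2 and Ccl2 (7.69%, against 5.12% of the genes it tested). Lcn2, an iron-binding protein that is also in the acute phase list, read 32 and 21.5 CPM in AKK against 2.08 and 0.273 CPM in PBS (log2 fold change 4.49, SE 0.88, edgeR adjusted p = 0.182). Ccl2, the chemokine of monocytes, read 16.7 and 7.76 CPM in AKK against 4.12 and 4.86 CPM in PBS (1.45, SE 0.44, edgeR adjusted p = 0.251). Icam1, an adhesion molecule, read 13.5 and 11.1 CPM in AKK against 8.42 and 7.28 CPM in PBS. Tnf read 1.1 and 0.291 CPM in AKK against 0.0937 and 0.442 CPM in PBS, and Il6 1.77 and 2.33 CPM in AKK against 1.97 and 0.757 CPM in PBS, both with overlapping groups.

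Of 15 inflammasome genes, among them partners of Nlrp3 and sensors of other inflammasomes such as Aim2 and Nlrc4, edgeR called none. An unadjusted p under 0.05 was found for 3 (15.3% of all genes), all lower in AKK, and DESeq2 called 1 (5.12% of all genes it tested). P2rx7, the ATP-gated channel that triggers Nlrp3, was that gene, with 4.74 and 3.24 CPM in AKK against 11.9 and 15.7 CPM in PBS (log2 fold change -1.79, SE 0.35, edgeR adjusted p = 0.182, DESeq2 adjusted p = 9.98e-05). Nek7, a kinase that Nlrp3 needs for assembly, read 73.2 and 102 CPM in AKK against 131 and 127 CPM in PBS. Txnip, a thioredoxin-binding protein linked to Nlrp3, read 65.3 and 80.7 CPM in AKK against 89.4 and 187 CPM in PBS. Casp1 read 23.5 and 23.8 CPM in AKK against 9.77 and 23.9 CPM in PBS, where PBS 1 alone was low. Of 10 measured interferon regulatory factors and nucleic acid sensors, edgeR called none (0.00572% of all genes) and DESeq2 none (5.12% of all genes it tested). An unadjusted p under 0.05 was found for 0 (15.3% of all genes). The 3 with the smallest p were Irf3 at 57.8 and 51.9 CPM in AKK against 42.8 and 43.9 CPM in PBS, Cgas at 7.32 and 7.42 CPM in AKK against 9.71 and 9.71 CPM in PBS, and Mavs at 41.9 and 49.6 CPM in AKK against 52.4 and 54.8 CPM in PBS.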

How the data were processed

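Total RNA of liver tumours was sequenced as pairs of 151 bp reads, per the labels. The deposited values are raw counts of reads per gene in STAR's layout, and STAR 2.5.2 and RSEM 1.2.31 are named in the submitters' processing notes. Neither genome build nor annotation release is stated in the sources used here. The own-strand column, with 95.4 to 96.2% of reads assigned by strand, was used without its summary rows. Symbols came from a table of gene names (48058 of 48526 identifiers). The main test was edgeR 4.0.16 in R 4.3.3 (quasi-likelihood, legacy form, two-sided) with TMM scaling, filterByExpr and Benjamini-Hochberg adjustment over 17479 genes at 0.05. Log2 fold changes are AKK minus PBS with a prior count of 0.125, and standard errors (SE) come from the F statistic. CPM are TMM-scaled. Levels per kilobase use exon lengths of GENCODE M21, which may not be the annotation counted. DESeq2 1.42.0 (17140 genes given an adjusted p), other scalings, no filter, the replicate block, unstranded counts and leaving out each library were alternatives. On simulated counts of this comparison with 17479 genes, edgeR called 81 of 100 genes changed 4-fold and 100 of 100 changed 32-fold, with 9 false calls, and DESeq2 82 and 100 with 44. The simulation gave genes of like level the same spread and changed no gene of low count. These rates therefore may not hold for the real genes. The members and all lists were chosen with earlier results of these data known. Every member is named, and from each further list genes past the threshold or else the 3 with the smallest p. Mpeg1, Mrc1, Cd68, Siglech, Tlr11, Tlr12, Unc93b1, Tnf, Il6 and Casp1 were added after their values were seen.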

Additional observations from a re-analysis of the deposited data

How the results depend on the processing

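No member passed edgeR's adjusted threshold under any alternative run in edgeR, and DESeq2 called 2 of the 38, Cd14 and Rel. The count over all genes was 1, and it was 3 with total count scaling, 631 without a filter, 878 in DESeq2, 4 in the edgeR 4 form and 0 to 324 when 1 library was left out (0 without AKK 1 or AKK 2, 279 without PBS 1 and 324 without PBS 2). With the replicate block it was 209 and no member passed. Libraries with the same number did not deviate together across all genes (r = -0.0445 across 17479 genes). With 2 libraries per group this cannot exclude a factor that such libraries share in part of the genes. The median log2 fold change of the members was -0.084 to -0.016 with 1 library left out. Of 266 member values under the 7 other alternatives, 259 kept direction and side of the threshold. Those that turned were Rela (0.012 with total count scaling and 0.012 with unstranded counts) and Nfkbib (0.015 with total count scaling, 0.018 with unstranded counts and 0.0053 with the replicate block), both near zero throughout. When 1 library was left out, 21 members kept their direction in all 4 fits and 17 did not. The log2 fold changes of those 17 ranged as follows: Irak2 (-0.015 to 0.58), Irak3 (-0.19 to 0.87), Irak4 (-0.16 to 0.23), Lbp (-0.46 to 1.07), Ly96 (-0.087 to 0.66), Nfkb1 (-0.19 to 0.0065), Nfkb2 (-0.031 to 0.21), Nfkbia (-0.36 to 0.69), Nfkbib (-0.19 to 0.17), Nfkbie (-0.072 to 0.16), Rela (-0.033 to 0.00075), Relb (-0.0042 to 0.29), Ticam1 (-0.35 to 0.062), Tlr1 (-0.25 to 0.34), Tlr2 (-0.62 to 0.50), Tlr5 (-2.27 to 0.99), Tnip1 (-0.32 to 0.27). Of the 21, Tlr3 (-0.66 to -0.05), Nod2 (0.077 to 0.65), Tlr6 (0.024 to 0.24), Nfkbiz (0.086 to 0.58) and Ticam2 (-0.97 to -0.013) came near zero. A lone library was assumed to vary like the others. Depth limits 7 members with under 50 reads in at least 1 library, with Tlr5 the lowest at 5 reads. The causes were not tested.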
